A study of Mus musculus with 15 samples.

Results

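The forkhead transcription factors measured here are the mouse genes whose symbol is Fox followed by a subfamily letter from a to s and a number. The count tables listed 44 such symbols, 2 of which are not reported here, so that 42 of the 23412 listed genes form the group. The rule used symbols and no measured value, though it was set with earlier results of these data known. Of these genes, 31 passed the expression filter and were tested among 14508 genes, and 11 were below that filter.

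Forkhead proteins share a winged-helix DNA-binding domain and are named by subfamily. FOXA proteins are pioneer factors of endoderm that can bind nucleosomal DNA, FOXO proteins are the transcriptional arm of insulin and PI3K signalling and are kept out of the nucleus by AKT, and FOXH1 carries activated SMAD2 and SMAD3 to Nodal and activin targets. FOXM1 drives the mitotic gene programme of dividing cells, FOXJ1 is the master regulator of motile cilia, and FOXK and FOXP proteins act largely as repressors. In mouse embryonic stem cells FOXH1 and FOXO factors are well studied, whereas many other members act later, in single lineages.

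The data are polyA RNA-seq of male v6.5 mouse embryonic stem cells in 5 conditions with 3 replicates each, all transfected with 50 nM siRNA and collected 48 h later. Wild-type cells received siGLO, the control siRNA, or siStag1, which targets the Stag1 mRNA. Stag1-/- cells received siGLO, and Stag2-/- cells received siGLO or siStag1; STAG1 and STAG2 are alternative subunits of cohesin, the ring complex that folds chromatin. Each knockout is 1 CRISPR clone, so genotype and clone cannot be told apart and p-values measure the spread between libraries of 1 line. The study calls its replicates biological, and the labels do not say how they were separated. Every fold change against wild-type siGLO shares the same 3 control libraries.

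Libraries held 14982560 to 19070126 reads on genes. The targeted genes were read first. Stag2 stood at 2329 to 2334 normalized counts in wild-type siGLO libraries and at 663 to 739 in Stag2-/- siGLO libraries, and siStag1 took Stag1 from 2012 to 2288 in wild-type siGLO down to 353 to 517 in wild-type siStag1. In Stag2-/- cells the same siRNA took Stag1 from 1875 to 2204 down to 629 to 781, and the difference between these siStag1 effects was 0.75 ± 0.19 SE on the log2 scale (edgeR adjusted p = 0.254). Stag2 read 851 to 940 in Stag2-/- siStag1 libraries, above the Stag2-/- siGLO range and called higher (log2 fold change 0.39 ± 0.12 SE, adjusted p = 0.0808). In Stag1-/- libraries Stag1 read 1826 to 2368, overlapping wild type, as the clone carries an in-frame deletion that leaves the transcript, so the count does not check that label. A normalized count here is the read count scaled to the mean effective library size of the 15 libraries.

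Most forkhead genes were low in these cells, and a few were high. On the scale of normalized counts per kb of exon in wild-type siGLO cells, the level was highest for Foxk2, at 420 ± 59.4 (SD, n = 3), followed by Foxo4 at 403 ± 8.56, Foxh1 at 401 ± 24.7 and Foxp4 at 390 ± 46.9. These neighbours in the order did not differ beyond their spread. Foxn2 followed further down at 153 ± 12.8 and Foxo3 at 135 ± 21.9, overlapping within their SDs, with Foxm1 above both. Over all 15 libraries, 12 members averaged at least 500 normalized counts, 16 lay between 10 and 500, and 14 lay under 10. Foxb2, Foxi1 and Foxl1 had no read in any library, which allows up to 3 reads in a library (counting error only). The summed normalized count of all 42 genes was 14817 to 15454 in wild-type siGLO, 15250 to 16181 in wild-type siStag1, 15727 to 17230 in Stag1-/-, 15944 to 18064 in Stag2-/- and 17945 to 19431 in Stag2-/- siStag1 libraries.

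**Figure D1:**
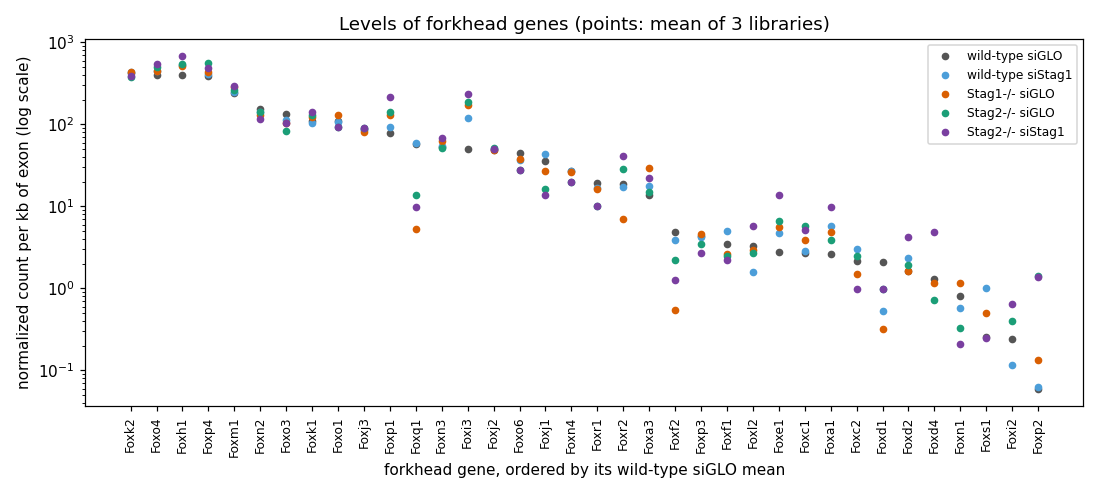
Mean normalized count per kb of exon (log scale) of forkhead genes with a read in wild-type siGLO cells, ordered by that level, with 1 colour for each of the 5 conditions and 1 point for the mean of 3 libraries. Foxk2, Foxo4, Foxh1 and Foxp4 stood highest, and the points of Foxq1, Foxi3, Foxr2, Foxf2, Foxd1 and Foxp2 lay apart between conditions; conditions with a mean of 0 have no point.

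Upstream sequence is shown for members whose level moved and that the RefSeq promoter table (GRCm38.p6) covers. The table held 26 of the 42 genes, as 29 promoters of 300 bases. The first stretches are shown because Foxi3 was called higher in 4 comparisons, and because Foxf2 and Foxc1 are close neighbours on chromosome 13 with differences of opposite sign. Each runs 5′ to 3′ on the gene's strand and ends at the base before the annotated start, and capitals mark the dinucleotide CG.
Foxi3, chr6:70956356-70956530, plus strand: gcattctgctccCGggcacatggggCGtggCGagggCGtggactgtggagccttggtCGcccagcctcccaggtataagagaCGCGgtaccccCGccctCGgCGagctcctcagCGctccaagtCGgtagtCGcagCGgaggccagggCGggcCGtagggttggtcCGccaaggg
Foxf2, chr13:31625566-31625815, plus strand: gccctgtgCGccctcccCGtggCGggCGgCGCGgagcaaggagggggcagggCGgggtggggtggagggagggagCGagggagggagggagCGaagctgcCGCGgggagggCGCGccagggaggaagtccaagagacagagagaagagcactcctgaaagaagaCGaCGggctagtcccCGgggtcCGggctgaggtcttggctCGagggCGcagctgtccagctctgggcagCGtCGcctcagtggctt
Foxc1, chr13:31806396-31806632, plus strand: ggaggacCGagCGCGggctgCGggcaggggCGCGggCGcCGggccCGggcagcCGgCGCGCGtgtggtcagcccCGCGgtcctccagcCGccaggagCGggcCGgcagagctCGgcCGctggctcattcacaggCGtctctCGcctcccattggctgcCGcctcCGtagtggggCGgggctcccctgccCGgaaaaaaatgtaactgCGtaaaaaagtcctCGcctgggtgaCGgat
The whole 300-base promoters held 31 CG in Foxi3, 27 in Foxf2 and 32 in Foxc1, against a median of 7 over all 32851 promoters in the table. Foxr2, whose differences turned in opposite directions in the knockouts, held 3. The letters GGGCGG, the core of a GC box, occurred on either strand in 35.7% of all promoters and in 21 of the 29 forkhead promoters.

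The core forkhead recognition letters were searched in the same promoters on both strands. TGTTTAC occurred in 3.65% of all promoters and in 1 of the 29 forkhead promoters, that of Foxa1. TGTTTGC occurred in 5.07% of all and in 2 forkhead promoters, those of Foxj3 and Foxp1, and TGTTTAT in 4.60% of all and in 3 forkhead promoters, of Foxp1 (2) and Foxp3. The matches of Foxa1 and Foxp1 are printed with 10 bases on either side, on the gene's strand, with the match in capitals, to show how these letters sit.
Foxa1, chr12:57546236-57546262, minus strand: atactgctttGTAAACAaagtgagggc
Foxp1, chr6:99521144-99521170, minus strand: cccaccccagTGTTTGCttggaaattg
Foxp1, chr6:99521069-99521095, minus strand: taaggactaaATAAACAgttgtaactc
Foxp1, chr6:99266576-99266602, minus strand: tgagtgtttgTGTTTATgcaaaggggc
The letters GTAAACA and ATAAACA are the same recognition letters read on the other strand. A match is a description of the letters and says nothing of binding in these cells.

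Loss of STAG1 was asked about first, by comparing Stag1-/- siGLO with wild-type siGLO cells. Foxa3, Foxh1, Foxi3, Foxm1 and Foxp1 rose and Foxf2, Foxq1 and Foxr2 fell, which is 8 of the 31 tested members at an adjusted p under 0.1 (edgeR's quasi-likelihood test, Benjamini-Hochberg over all genes tested). Of all genes tested, 20.0% were called, 10.1% higher and 9.93% lower. The median log2 fold change was 0.11 over the 31 members and -0.01 over all genes, and the median size of the log2 change was 0.26 against 0.21.

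Foxq1, a forkhead gene of epithelia and hair follicles (chr13:31556134-31560976, plus strand), showed the largest fall among the called members. Its normalized count was 302, 264 and 274 in the wild-type siGLO libraries and 28.5, 21.4 and 28.0 in the Stag1-/- libraries. The conditions did not overlap, and the fitted level was 10.7-fold lower (log2 fold change -3.42 ± 0.21 SE, adjusted p = 6.47e-08). Foxf2, a mesenchymal regulator that starts 69682 bases downstream, gave 10.3, 10.2 and 14.5 normalized counts in wild type and 0, 2.92 and 0.904 in Stag1-/- libraries. That is 4 reads against 36, a ratio of 0.109 with a 95% counting interval of 0.0282 to 0.304 (exact binomial), and the gene was called lower (log2 fold change -3.08 ± 0.72 SE, adjusted p = 0.0085). Foxc1, a regulator of mesoderm and eye development 250499 bases from the Foxq1 start, gave 27.6, 20.4 and 19.9 against 10.3, 18.3 and 19.4 and was not called, and neither was the next gene, Gmds, an enzyme of GDP-fucose synthesis, at a log2 fold change of 0.15.

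Foxi3, a gene of the otic and epibranchial placodes and of ectodermal appendages, moved the other way. Its normalized count was 77.6, 62.0 and 52.3 in wild type and 264, 188 and 204 in Stag1-/- libraries, without overlap, a 3.41-fold increase (log2 fold change 1.77 ± 0.21 SE, adjusted p = 3.34e-05). Foxa3, the endodermal FOXA member active in liver, stood at 26.2, 28.5 and 29.0 in wild type and at 51.2, 66.2 and 63.3 in Stag1-/- libraries (log2 fold change 1.11 ± 0.24 SE, adjusted p = 0.00573). Foxr2, an X-linked gene known as an oncogene when switched on in the brain and peripheral nervous system, fell from 76.7, 47.8 and 57.1 to 26.6, 17.5 and 24.4 (log2 fold change -1.40 ± 0.24 SE, adjusted p = 0.00095).

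The remaining calls in Stag1-/- cells were abundant genes with small changes. Foxp1, whose product represses lineage genes and has a stem-cell isoform, rose 1.65-fold (log2 fold change 0.73 ± 0.24 SE), Foxh1 rose 1.28-fold (0.35 ± 0.10) and Foxm1 rose 1.20-fold (0.26 ± 0.10). These 3 calls depended on single libraries. The adjusted p reached up to 0.111 for Foxh1 without wild-type siGLO replicate 2 or Stag1-/- replicate 1, up to 0.177 for Foxp1 without any 1 of 4 libraries (most without Stag1-/- replicate 1) and up to 0.281 for Foxm1 without any 1 of 5 (most without wild-type siGLO replicate 1). With the replicate number as a block, Foxe1 (1.03), Foxn2 (-0.22), Foxn3 (0.24) and Foxo3 (-0.38 on the log2 scale) were called as well, with adjusted p of 0.0824, 0.0862, 0.0463 and 0.0239.

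**Figure D2:**
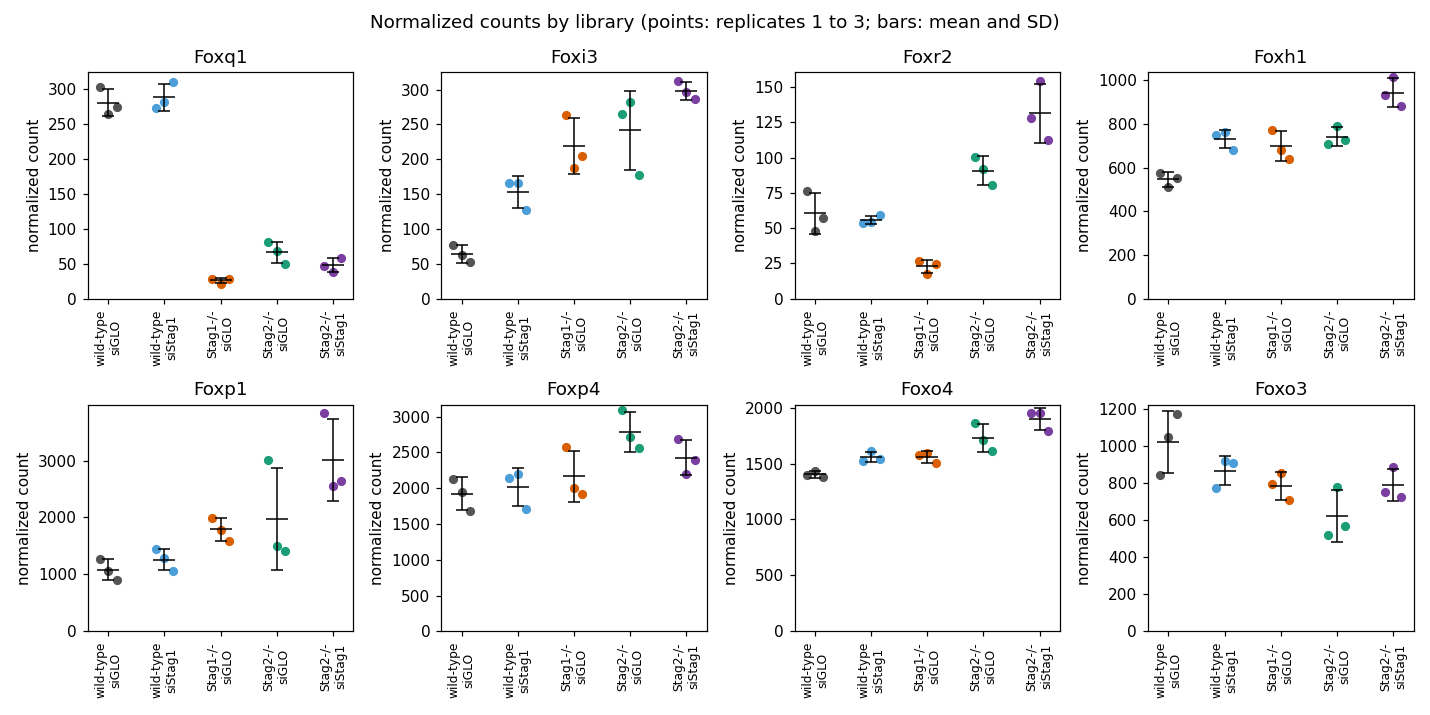
Normalized counts of 8 forkhead genes in each of the 15 libraries (vertical axes start at 0), with points for replicates 1 to 3 and black bars for the mean and SD of each condition. Foxq1 lay at 264 to 310 in all wild-type libraries and at 80.4 or lower in every knockout library, Foxi3 rose in every other condition, and Foxr2 lay below wild type in Stag1-/- and above it in both Stag2-/- conditions.

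Loss of STAG2 was assessed in Stag2-/- siGLO against wild-type siGLO cells. Here 15 of the 31 tested members were called, 10 higher (Foxc1, Foxe1, Foxh1, Foxi3, Foxk1, Foxo4, Foxp1, Foxp2, Foxp4 and Foxr2) and 5 lower (Foxj1, Foxo3, Foxo6, Foxq1 and Foxr1), against 28.3% of all genes tested. Higher calls made up 13.9% of all genes and lower calls 14.4%. The median size of the log2 fold change was 0.48 over the members and 0.25 over all genes, while the signed medians were 0.06 and 0.01.

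Foxq1 fell to 80.4, 67.9 and 49.6 normalized counts, 4.24-fold lower than wild type (log2 fold change -2.08 ± 0.19 SE, adjusted p = 3.1e-06), and Foxi3 rose to 266, 282 and 177 (1.91 ± 0.21 SE, adjusted p = 1.58e-05). Next to Foxq1, Foxf2 read 4.23, 3.23 and 8.45 and was not called (log2 fold change -1.12 ± 0.57 SE, adjusted p = 0.182), and Foxc1 read 22.2, 34.5 and 45.4 and was called higher (1.09 ± 0.44 SE, adjusted p = 0.0913). Foxc1 lost its call without any 1 of 5 libraries (adjusted p up to 0.267, without Stag2-/- siGLO replicate 3).

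The FOXO genes did not move together. Foxo4, the X-linked member, rose from 1397, 1437 and 1378 to 1858, 1709 and 1608 normalized counts (log2 fold change 0.30 ± 0.08 SE, adjusted p = 0.0111). Foxo3, which drives genes of quiescence, autophagy and apoptosis, fell from 847, 1050 and 1176 to 519, 780 and 571 (-0.72 ± 0.15 SE, adjusted p = 0.00357). Foxo6, the member known chiefly from brain, fell from 84.1, 119 and 144 to 55.0, 85.1 and 79.2 (-0.66 ± 0.25 SE, adjusted p = 0.0751), with overlapping libraries, and its adjusted p reached 0.278 without wild-type siGLO replicate 3. Foxo1 was not called here. On chromosome X, where Foxo4, Foxr2 and Foxp3 lie, the median log2 fold change of 519 tested genes was 0.12 in this comparison and -0.05 in the Stag1-/- comparison.

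Of the 4 FOXP genes, which encode repressors of neural, lung and immune development, 3 were called higher. Foxp4 rose from 2134, 1953 and 1675 to 3097, 2718 and 2556 normalized counts (log2 fold change 0.54 ± 0.13 SE, adjusted p = 0.00887). Foxp1 read 3007, 1495 and 1412 against 1280, 1054 and 909 in wild type (0.87 ± 0.24 SE, adjusted p = 0.0187), and replicate 1 stood far above the others: without it the log2 fold change was 0.43 and the adjusted p 0.104. Foxp2, the gene tied to speech and vocal learning, went from 0, 0 and 2.90 to 0, 37.7 and 31.7. Its signal came from 2 libraries only and overlapped wild type, with 65 reads against 3, a ratio of 23.7 with a 95% counting interval of 7.76 to 118. Such an interval pools the reads of a condition and leaves out the spread between its libraries. The fitted log2 fold change of Foxp2 was 4.40 ± 1.21 SE (edgeR adjusted p = 0.0173). The fourth member, Foxp3, the regulatory T cell factor, overlaps Ccdc22 and Ppp1r3f on the other strand, so its reads are uncertain, and it was never called.

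The low and tissue-restricted members split. Foxe1, a thyroid and palate factor, rose from 11.2, 7.12 and 4.84 to 20.1, 17.2 and 17.9 normalized counts (log2 fold change 1.24 ± 0.40 SE, adjusted p = 0.0381). Foxj1 fell from 60.8, 131 and 87.1 to 34.9, 42.0 and 52.8 (-1.10 ± 0.35 SE, adjusted p = 0.0367). Foxr1, a little-studied gene of germ cells and early embryos, fell from 49.6, 36.6 and 45.5 to 41.3, 16.2 and 11.6 with overlapping libraries (-0.93 ± 0.36 SE, adjusted p = 0.0815). Foxr2 rose to 101, 91.6 and 80.2, where it had fallen in Stag1-/- cells (0.58 ± 0.22 SE, adjusted p = 0.0702). Foxh1 rose 1.36-fold and Foxk1 1.16-fold. Leaving out 1 library ended most of these calls: the adjusted p reached 0.144 for Foxe1 without wild-type siGLO replicate 3, 0.192 for Foxj1 without wild-type siGLO replicate 2, 0.259 for Foxr1 without Stag2-/- siGLO replicate 3 and 0.252 for Foxr2 without wild-type siGLO replicate 2. The Foxk1 call, with an adjusted p of 0.0723, also ended, reaching 0.210 without wild-type siGLO replicate 1. Without wild-type siGLO replicate 2 the count of called members fell from 15 to 8, and with the replicate block Foxo1 joined the calls (-0.27, adjusted p = 0.0983).

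**Figure D3:**
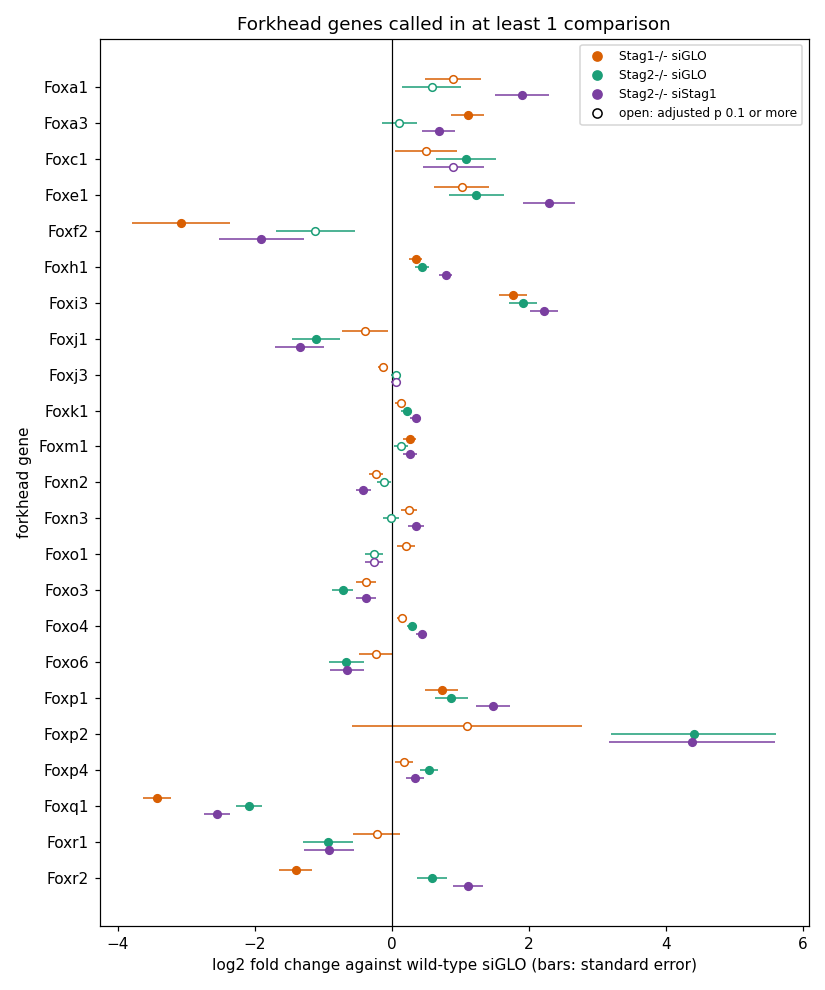
Log2 fold change against wild-type siGLO, with its standard error, of the 23 forkhead genes called in at least 1 comparison, for the knockout conditions named in the key, where filled points have an adjusted p under 0.1. Foxq1 was lower and Foxi3 higher in all 3, Foxr2 changed sign between the Stag1-/- and the Stag2-/- clones, and Foxp2 carried the widest bars.

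The difference between the clones was tested directly, as Stag1-/- siGLO against Stag2-/- siGLO. Of the tested members, 7 were called, 2 higher in Stag1-/- cells and 5 lower, against 25.7% of all genes (12.7% higher, 12.9% lower). Foxr2 differed with the smallest adjusted p, being 3.96-fold lower in Stag1-/- cells (log2 fold change -1.98 ± 0.24 SE, adjusted p = 4.27e-05), and Foxq1 was 2.53-fold lower (-1.34 ± 0.22 SE, adjusted p = 0.000507). Foxa3 was 2.00-fold higher in Stag1-/- cells (adjusted p = 0.00963), and Foxo1, the insulin-responsive FOXO gene, was higher at 1092, 1218 and 1032 normalized counts against 874, 865 and 675 (log2 fold change 0.47 ± 0.13 SE, adjusted p = 0.0214). Foxj3, a factor of spermatocytes and muscle, was slightly lower, at 865, 916 and 856 against 995, 1013 and 995 (-0.19 ± 0.07 SE, adjusted p = 0.0817). Foxp4 and Foxp2 were also lower, with overlapping libraries (adjusted p of 0.0641 and 0.0383). Foxj3, Foxp4 and Foxp2 lost their calls when 1 library was left out, with adjusted p up to 0.178 without Stag2-/- siGLO replicate 2, 0.204 without Stag1-/- replicate 2 and 0.138 without Stag2-/- siGLO replicate 2. With the replicate block 14 members were called, the same 7 and also Foxf2, Foxj1, Foxk2, Foxn3, Foxo3, Foxo4 and Foxr1, with adjusted p between 0.0219 and 0.0975.

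Acute reduction of Stag1 mRNA was assessed in wild-type cells. In wild-type siStag1 against wild-type siGLO cells 1 of the 31 tested members was called, against 0.248% of all genes (0.103% higher, 0.145% lower), and 3 members had an unadjusted p under 0.05, as did 6.36% of all genes. The called gene was Foxi3, which rose from 77.6, 62.0 and 52.3 to 167, 166 and 127 normalized counts without overlap (log2 fold change 1.26 ± 0.21 SE, adjusted p = 0.0328). Leaving out wild-type siGLO replicate 2 or 3, or wild-type siStag1 replicate 1 or 2, ended this call, with an adjusted p up to 0.218 without wild-type siStag1 replicate 2. Foxh1 read 748, 762 and 683 against 577, 510 and 554, also without overlap, at an adjusted p of 0.151 (log2 fold change 0.42 ± 0.10 SE) and of 0.035 with the replicate block. Foxq1 stayed at 273, 281 and 310, and its libraries overlapped those of wild-type siGLO.

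Cells with both perturbations, Stag2-/- siStag1, were compared with wild-type siGLO and with Stag2-/- siGLO cells. Against wild type 20 of the 31 members were called, 13 higher and 7 lower, while 43.9% of all genes were called, 22.6% higher and 21.3% lower. The median size of the log2 change was 0.68 over the members and 0.31 over all genes. The comparison shares its clone with the Stag2-/- siGLO libraries and its controls with the preceding ones.

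Foxa1, the pioneer factor of liver, prostate and breast, read 41.4, 26.0 and 31.3 normalized counts against 11.2, 6.10 and 8.71 in wild-type siGLO (log2 fold change 1.90 ± 0.39 SE, adjusted p = 0.00138) and against 19.0, 9.70 and 10.6 in Stag2-/- siGLO cells (1.32 ± 0.38 SE, adjusted p = 0.0638). The libraries did not overlap in either contrast. Foxa3 also rose against wild type (0.68 ± 0.25 SE, adjusted p = 0.0399). Foxe1 reached 33.5, 36.4 and 45.5, a 4.90-fold increase over wild type (adjusted p = 0.00021).

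Foxh1 was higher against both references. It read 935, 1014 and 885 normalized counts in Stag2-/- siStag1 cells, above the 708, 791 and 728 of Stag2-/- siGLO cells (log2 fold change 0.35 ± 0.10 SE, adjusted p = 0.0561) and above wild-type siGLO (0.79 ± 0.10 SE, adjusted p = 1.44e-05). Foxp1 reached 3834, 2552 and 2645, a 2.78-fold increase over wild type (1.48 ± 0.24 SE, adjusted p = 0.000206). Against Stag2-/- siGLO cells the Foxp1 difference was 0.61 ± 0.24 SE with an adjusted p of 0.19, and 0.65 with an adjusted p of 0.00362 with the replicate block. Foxr2 read 128, 154 and 112 (1.11 ± 0.22 SE against wild type, adjusted p = 0.000812) and Foxi3 312, 296 and 286 (2.22 ± 0.21 SE, adjusted p = 8.56e-07), and neither differed from Stag2-/- siGLO cells at the threshold (0.53, adjusted p = 0.199, and 0.30, adjusted p = 0.453).

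Foxq1 and Foxf2 were again low. Foxq1 read 47.3, 38.5 and 57.6 (log2 fold change -2.55 ± 0.19 SE against wild type, adjusted p = 1.01e-07), and Foxf2 read 5.91, 1.04 and 2.02 (-1.90 ± 0.62 SE, adjusted p = 0.0251, rising to 0.104 without Stag2-/- siStag1 replicate 2). Foxc1 was not called against wild type here (0.90, adjusted p = 0.125). Foxj1 read 23.7, 37.4 and 48.5 (-1.34 ± 0.36 SE, adjusted p = 0.00758). Foxp2 read 6.90, 33.3 and 28.3, with 67 reads against 3, a ratio of 23.2 and a 95% counting interval of 7.62 to 116. Its fitted log2 fold change was 4.38 ± 1.21 SE (edgeR adjusted p = 0.00964).

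Other abundant members shifted less than Foxp1 and Foxh1, and the less abundant Foxo6 and Foxr1 were also called. Foxo4 rose 1.35-fold, Foxk1 1.27-fold, Foxn3, a checkpoint-linked repressor, 1.28-fold and Foxm1 1.21-fold over wild type, while Foxn2, a paralogue of FOXN3, was 1.33-fold lower (adjusted p = 0.00545). Foxp4 (0.34, adjusted p = 0.0547), Foxo3 (-0.37, 0.0614), Foxo6 (-0.65, 0.054) and Foxr1 (-0.91, 0.0581) were called, and each call ended when a single library was left out, with adjusted p up to 0.209, 0.235 and 0.219 without wild-type siGLO replicate 3 and 0.163 without Stag2-/- siStag1 replicate 3. The Foxm1 call reached an adjusted p of 0.212 without Stag2-/- siStag1 replicate 3. Within 500 kb of Foxk1, 11 of 11 tested neighbours were called higher here (median log2 fold change 0.52). In Stag2-/- siGLO cells 6 were higher and 0 lower. Near Foxo3, 6 of 8 were called lower and 1 higher here (median -0.56), and 4 and 1 in Stag2-/- siGLO cells. Neighbours of Foxo4, Foxn3, Foxm1, Foxn2, Foxp4 and Foxr1 were called in both directions, and 1 of Foxo6 was lower. The part of neighbours in these changes was not tested.

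Against Stag2-/- siGLO cells 3 members were called, Foxa1, Foxh1 and Foxn3, all higher, against 6.37% of all genes (2.98% higher, 3.39% lower). Each of these calls ended without certain single libraries, with adjusted p up to 0.192 for Foxa1 (without Stag2-/- siGLO replicate 2), and 0.219 for Foxh1 and 0.261 for Foxn3 (both without Stag2-/- siStag1 replicate 2). With the replicate block 7 members were called, Foxe1, Foxn2, Foxo3 and Foxp1 joining the 3. The difference between the siStag1 effects in Stag2-/- and wild-type cells was called for 0 of the 31 members by edgeR, against 0.159% of all genes (0.0207% higher, 0.138% lower), with 4 members at an unadjusted p under 0.05 (5.80% of all genes) and 0 called by DESeq2. Foxi3 came closest, at a difference of -0.95 on the log2 scale and an adjusted p of 0.418, and was the 1 member called with the replicate block (adjusted p = 0.0724), though the numbers did not pair the libraries in that comparison.

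**Figure D4:**
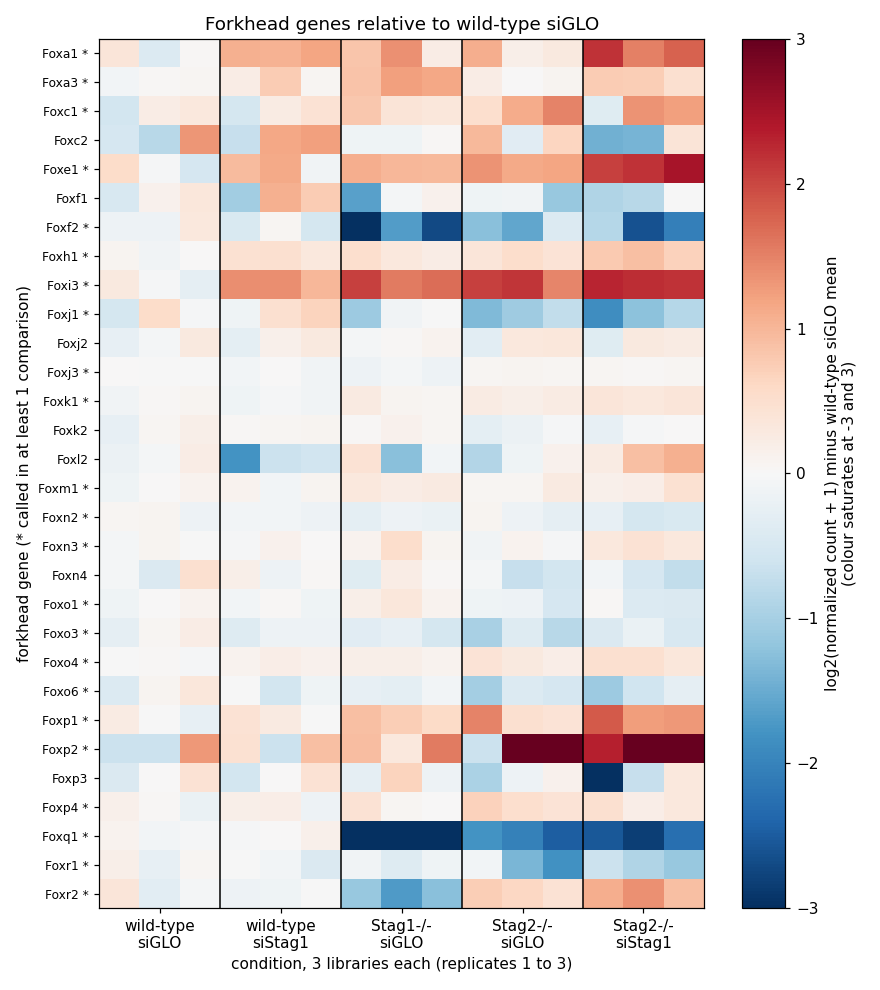
Log2(normalized count + 1) of 30 of the 31 tested forkhead genes in each of the 15 libraries relative to the wild-type siGLO mean, red for higher and blue for lower, with columns in 5 blocks of 3 replicates and asterisks on genes called in at least 1 comparison. The Foxq1 and Foxf2 rows were blue and the Foxi3 row red across the knockout columns, and most rows of abundant genes were pale.

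Across the 7 comparisons 23 of the 31 tested members were called at least once and 8 never. The share of all genes called at least once was not counted, and single comparisons called up to 43.9% of all genes. Against wild-type siGLO the libraries did not overlap in 14 members for Stag1-/- (31.7% of all genes), 15 for Stag2-/- (35.7%), 5 for wild-type siStag1 (15.5%) and 20 for Stag2-/- siStag1 (47.3%). They did not overlap in 9 members for Stag2-/- siStag1 against Stag2-/- siGLO (19.3% of all genes) and in 10 for Stag1-/- against Stag2-/- (31.0%). The uncalled 8 included Foxk2, a glycolysis and autophagy regulator that averaged 2170 normalized counts, and Foxj2, which averaged 267. Foxn4, a gene of retinal and spinal interneurons, averaged 80.3, and Foxc2, Foxf1, Foxl2 and Foxp3 averaged between 5.53 and 17.8.

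Genes known to work with these factors were counted from lists, and their role in any forkhead change was not tested. Each count reads against the share of all genes called, 20.0% in Stag1-/- and 28.3% in Stag2-/- cells. These lists and the marker lists below share genes, Sox17 among them, so their counts are not independent. Of 12 FOXA partners and endoderm targets, 7 were tested and 6 of them were called lower in Stag1-/- and in Stag2-/- cells, most strongly Hnf4a, a liver and visceral endoderm regulator, in Stag1-/- cells (log2 fold change -5.17 ± 0.62 SE, adjusted p = 4.59e-05) and Sox17, an endoderm regulator, in Stag2-/- cells (-2.72 ± 0.33 SE, adjusted p = 4.5e-05). Foxa1 and Foxa3 were not lower in either knockout. Of 10 tested FOXH1 partners and targets, 2 rose with STAG1 lost, and with STAG2 lost 4 were called, evenly split. The larger of the former was Lefty1, a Nodal inhibitor (log2 fold change 1.07 ± 0.20 SE, adjusted p = 0.0019).

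Among 15 tested FOXM1 targets, 4 rose in Stag1-/- cells, led by Cdc25b, a mitotic phosphatase (log2 fold change 0.39 ± 0.13 SE, adjusted p = 0.0545), and 1 rose and 1 fell in Stag2-/- cells, where the larger was Nek2, a centrosomal kinase (-0.29 ± 0.07 SE, adjusted p = 0.0093). Of 16 FOXO targets, 7 were called in each knockout, 5 of them higher with STAG1 lost and 2 of them higher with STAG2 lost. The largest were Pik3ip1, a PI3K inhibitor (0.97 ± 0.37 SE, adjusted p = 0.0979), and Klf15, a metabolic regulator (-1.07 ± 0.23 SE, adjusted p = 0.0039). Of 18 FOXO regulators, 1 rose and 1 fell in Stag1-/- cells, Sgk3, a kinase of the AKT family, being lower (-0.46 ± 0.16 SE, adjusted p = 0.0614), and 1 rose in Stag2-/- cells. In Stag2-/- siStag1 cells Sgk1, another kinase of that family, was lower (log2 fold change -1.75 ± 0.22 SE, adjusted p = 1.57e-05).

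Motile cilia genes were called in both directions. Of 16 tested FOXJ1 regulators and cilia genes, 1 rose and 1 fell in Stag1-/- cells, where Hydin, a central-pair protein of the axoneme, fell by 1.92 on the log2 scale (± 0.21 SE), and 3 rose and 3 fell in Stag2-/- cells, where Rsph4a, a radial spoke protein, rose by 2.35 (± 0.73 SE, adjusted p = 0.0325) from few reads. Of 11 FOXK and FOXP partners, 0 were called with STAG1 lost, and with STAG2 lost 2 rose and 1 fell, led by Asxl1, a Polycomb-associated protein (0.41 ± 0.08 SE, adjusted p = 0.0025).

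In Stag2-/- siStag1 against wild-type siGLO cells, where 43.9% of all genes were called, the same lists gave 1 higher and 5 lower of the 7 FOXA genes, 5 and 2 of the 10 FOXH1 genes, 2 and 1 of the 15 FOXM1 targets, 3 and 4 of the 16 FOXO targets, 4 and 6 of the 18 FOXO regulators, 6 and 3 of the 16 cilia genes and 5 and 1 of the 11 FOXK and FOXP partners. Among the cilia genes Ccno, which acts in the formation of multiciliated cells, rose by 2.62 (± 0.33 SE, adjusted p = 1.84e-05), in cells where Foxj1 itself was lower. Between the clones, against 25.7% of all genes, the counts higher and lower in Stag1-/- cells were 0 and 5 for FOXA, 2 and 1 for FOXH1, 6 and 0 for FOXM1 targets, 3 and 0 for FOXO targets, 3 and 3 for FOXO regulators, 4 and 5 for cilia genes and 0 and 2 for FOXK and FOXP partners. With siStag1 in wild-type cells 1 FOXO target was lower and no other listed partner was called. With siStag1 in Stag2-/- cells, against 6.37% of all genes, 1 FOXA gene, 1 FOXO regulator and 2 cilia genes were higher, and 1 FOXO regulator, 2 FOXO targets and 1 cilia gene were lower.

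Markers of other cell types moved with some of these results, and in bulk RNA fewer cells of a type and less RNA per cell cannot be told apart. All 8 of 8 primitive endoderm markers were called lower in Stag1-/-, Stag2-/- and Stag2-/- siStag1 cells and none was at 0 throughout. Their summed normalized count was 32334 to 33048 in wild-type siGLO, 28912 to 30777 in wild-type siStag1, 5645 to 7431 in Stag1-/-, 4964 to 8456 in Stag2-/- and 4855 to 7689 in Stag2-/- siStag1 libraries. Foxq1 was high and low in the same libraries as these markers. Between the clones 5 of the 8 were called lower in Stag1-/- than in Stag2-/- cells and 0 higher, with a median log2 fold change of -1.18, beside -1.34 for Foxq1, while the summed ranges overlapped. Their part in the Foxq1 result was not tested. Neural markers summed to 2195 to 3047 in wild-type siGLO, 3411 to 5276 in Stag2-/- and 4398 to 6979 in Stag2-/- siStag1 libraries, with 4 and 3 of 6 tested called higher, beside the higher Foxp1, Foxp2 and Foxp4. Foxp1 was also higher in Stag1-/- libraries, where the neural sum was 2515 to 2849, within the wild-type range. There 1 of 6 tested neural markers was called higher and 1 lower (median log2 fold change 0.40). Replicate 1 of both Stag2-/- conditions had the highest Foxp1 and the lowest neural sum of its condition (3411 and 4398). Foxp2 was lowest in the same replicate 1 libraries, at 0 and 6.90 normalized counts. Trophoblast markers summed to 147 to 198 in wild-type siGLO and 553 to 775 in Stag1-/- libraries, with 3 of 5 tested called higher, while 1 was higher and 1 lower in Stag2-/- cells and 0 were called in Stag2-/- siStag1 cells (116 to 143). Pluripotency markers were called lower for 2 of 9 in Stag1-/-, 5 of 9 in Stag2-/- and 8 of 9 in Stag2-/- siStag1 cells, all against wild-type siGLO. In wild-type siStag1 cells 1 of 9 was lower (Tfcp2l1, a naive pluripotency factor, -0.71 on the log2 scale, adjusted p = 0.0481), and 6 of 9 were lower in Stag2-/- siStag1 than in Stag2-/- siGLO cells. Of 7 tested primitive streak markers 1 rose with STAG1 lost, 1 rose and 1 fell with STAG2 lost, and of 4 tested fibroblast markers 0 and 1 rose. Primitive streak markers summed to 306 to 408 in wild-type siGLO and 258 to 537 in Stag2-/- libraries, and to 174 to 200 in Stag2-/- siStag1 libraries, below wild type, with 1 called higher and 2 lower. Fibroblast markers summed to 295 to 554 in wild-type siGLO, 328 to 662 in Stag2-/- and 391 to 457 in Stag2-/- siStag1 libraries, with 1 called higher in the last. The part of these lists in the forkhead results was not tested.

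**Figure D5:**
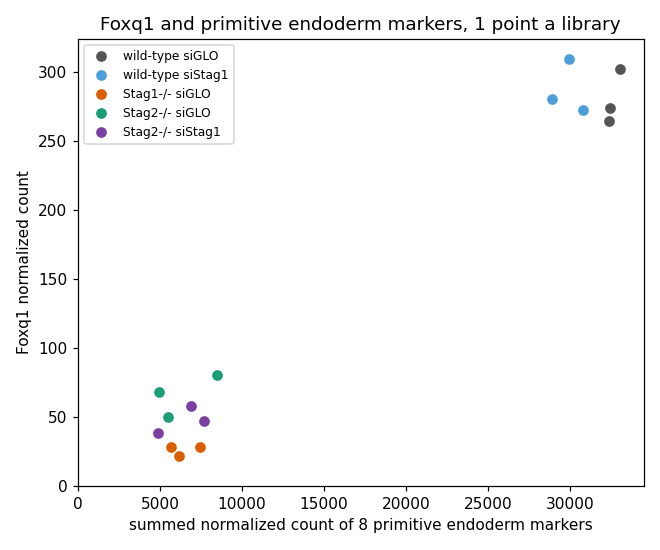
Normalized count of Foxq1 (vertical) against the summed normalized count of 8 primitive endoderm markers (horizontal) in the 15 libraries, coloured by condition, with both axes from 0. The 6 wild-type libraries form a high cluster and the 9 knockout libraries a low cluster, within which Stag1-/- libraries have the lowest Foxq1.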

How the data were processed

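PolyA RNA from 15 libraries was sequenced and, per the labels and the study's methods, the authors aligned reads to mm10 with STAR; the counting tool, annotation and strand setting are not given in the sources used here. The authors deposited whole-number read counts per gene, used as deposited. Summary lines that name no gene (19.8% to 23.4% of each file) were left out. Libraries held 14982560 to 19070126 reads on genes. Genes were filtered by edgeR 4.0.16 (filterByExpr, minimum count 10, minimum total 15), scaled by TMM, and tested with the quasi-likelihood test in 1 fit over all 15 libraries (R 4.3.3), with Benjamini-Hochberg adjustment over 14508 genes and a threshold of 0.1. The script was tested on simulated data. DESeq2 1.42.0, its size factors, no filter, fits to the compared libraries alone, a replicate block and leaving out libraries were the alternatives. Replicate numbers were taken to pair the libraries where same-numbered deviations correlated above 0.1 in every pair (5 comparisons, lowest 0.121), but not in Stag2-/- siStag1 against wild type (lowest 0.0485) or the difference of siStag1 effects (lowest -0.087). Positions and exon lengths came from GENCODE on mm10. With the strand setting unknown, reads of Foxq1, Foxe1, Foxj2 and Foxo1 cannot be told apart from antisense models over their exons, nor those of Foxm1 and Foxp1 from overlapping models on their own strand. Members called in at least 1 comparison are named with values, uncalled ones with a mean of 100 or more by level, and listed genes by largest change in each knockout; a few genes this rule would name are not reported here. The members and lists were chosen with earlier results of these data known.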

Additional observations from a re-analysis of the deposited data

Results flagged for a closer look

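For 2 low members the siStag1 and siGLO libraries did not overlap in either genotype, with opposite signs in wild-type and Stag2-/- cells. The share of all genes with this pattern was not counted. Lack of overlap alone held for 15.5% of all genes in wild-type cells and for 19.3% in Stag2-/- cells. Foxd4 read 0, 0 and 0 normalized counts in wild-type siStag1 against 1.87, 1.02 and 4.84 in wild-type siGLO, and 2.96, 7.28 and 18.2 in Stag2-/- siStag1 against 1.06, 1.08 and 2.11 in Stag2-/- siGLO libraries, so that the Stag2-/- means differed by 8.06. With at most 18 reads in a library it was below the filter of the main test. Fitted without the filter, the difference of the effects had an adjusted p of 0.23 by edgeR (unadjusted p 0.000966), and DESeq2 gave no adjusted p for it (unadjusted p 0.000951). Foxl2 read 2.33, 6.44 and 6.77 against 9.35, 10.2 and 12.6 in wild-type cells, and 12.8, 20.8 and 23.3 against 5.29, 9.70 and 11.6 in Stag2-/- cells, where the means differed by 10.1. The tested difference of the effects was 2.08 on the log2 scale, with an adjusted p of 0.58 by edgeR, and its reads cannot be told apart from those of the overlapping Foxl2os.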

How the results depend on the processing

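Of the 54 pairs of a forkhead gene and a comparison that were called, none changed sign under any alternative, and all 54 were called under DESeq2, under DESeq2's size factors and with the replicate block, which ended no call. Fitting only the compared libraries ended 10 calls and left 3 calls of Foxp2 untested, as it no longer passed the filter. Using no filter ended 4 calls, leaving out replicate 1 of every condition (chosen after seeing the data) ended 6, and 24 ended without some single library. The number of called members was 5 to 9 over single libraries left out for Stag1-/- (5 without wild-type siGLO replicate 2 or Stag1-/- replicate 1), 8 to 13 for Stag2-/-, 0 to 1 for siStag1 in wild type, 17 to 20 for Stag2-/- siStag1 against wild type, 1 to 4 against Stag2-/- siGLO (1 without Stag2-/- siGLO replicate 3 or Stag2-/- siStag1 replicate 2 or 3), 5 to 7 for Stag1-/- against Stag2-/- and 0 for the difference of siStag1 effects. For siStag1 in wild type it was 2 with the block, with DESeq2 and with the compared libraries alone; for Stag2-/- siStag1 against Stag2-/- siGLO it was 1 without the filter, 7 with the block and 0 with the compared libraries alone (main 3); for Stag1-/- against Stag2-/- 14 with the block; and for the difference of siStag1 effects 1 with the block. The cause was not tested. Where numbers did not pair the libraries, the block gave 22 calls for Stag2-/- siStag1 against wild type. Fold sizes of Foxf2 and Foxp2 rest on 4 and 3 reads in the lower condition.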

Other observations

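Among the 11 members below the filter of the main test, 8 had reads. Foxd1, a gene of kidney stroma and retina, read 16.8, 6.10 and 8.71 normalized counts in wild-type siGLO and 2.95, 0.973 and 0.904 in Stag1-/- libraries, and was called lower there by DESeq2 and without the filter. Foxb1, a diencephalic gene, read 0 in all wild-type siGLO libraries and 13.8, 1.04 and 10.1 in Stag2-/- siStag1 libraries, where its 25 reads may include reads of the overlapping B230323A14Rik. It was called higher in that condition by DESeq2, without the filter, and when any 1 of 4 libraries was left out, and in Stag2-/- siGLO cells without replicate 3, and the counts of called members in those settings include it. Foxd2, Foxe3, Foxi2, Foxn1 and Foxs1 stayed at or below 16.6 in every library.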
